A study of Homo sapiens with 9 samples.

Results

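The WNT ligands, their receptors, the factors that release them and the secreted proteins that block them form a family of 49 genes among the 57736 gene models of the count table. The members were taken by symbol and not by a cut on any measured value. The choice of members was made with earlier results of these data known. They were all genes named WNT, FZD, DKK or SFRP with a number, together with LRP5, LRP6, ROR1, ROR2, RYK, WIF1, PORCN, WLS, AXIN2, LEF1, TCF7 and NKD1, and antisense genes were left out. By role they comprised 19 WNT ligands, 2 secretion factors, 10 Frizzled receptors, 2 LRP co-receptors, 3 receptors of the ROR and RYK type, 4 DKK inhibitors, 5 inhibitors of the SFRP and WIF1 type, and 4 nuclear or feedback genes.

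WNT proteins are lipid-modified signals that PORCN acylates and WLS carries to the cell surface. In the canonical branch a ligand that bridges a Frizzled and LRP5 or LRP6 stops the destruction of beta-catenin, which then switches on genes with TCF and LEF factors. In the non-canonical branch, of which WNT5A is the best known ligand in melanoma and is linked there to an invasive, dedifferentiated state, the signal runs through Frizzleds, ROR1, ROR2 or RYK to cell polarity and movement. DKK1 binds LRP5 and LRP6, and the SFRPs and WIF1 bind the ligands themselves.

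RNA was sequenced from SKMEL-147, a human melanoma cell line that carried Cas9 in all 3 groups and received a GFP-marked lentiviral guide RNA. The study asked what the loss of PHF8, a histone demethylase, does to gene expression in these cells. The groups were a scrambled guide (sgScr) and 2 guides against PHF8 (sgPHF8-1 and sgPHF8-3), with 3 replicate libraries each, named A, B and C. The cells were transduced populations and not single clones, so edited and unedited cells were read together, and fewer cells that express a gene cannot be told apart from less RNA per cell.

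The 2 PHF8 guides are shown because every comparison rests on them. Their sequences were read from the study's list of reagents. The sample labels give no sequence, so sgPHF8-1 and sgPHF8-3 were taken to be the listed guides with the same numbers. Each 20-base target had 1 exact match in GRCh37. The capitals mark the PAM, the bases next to the target that Cas9 needs.
sgPHF8-1: gtcacactcgatcatgaagcGGG
sgPHF8-3: tcctcctgagcctaaacaagAGG
On that reading, the target of sgPHF8-1 lies on the plus strand at chrX:54069090-54069109, in coding exon 2 of PHF8. That of sgPHF8-3 lies on the minus strand at chrX:53966772-53966791, in coding exon 21, counted on the canonical transcript. The scrambled guide had 0 exact matches in the genome.

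PHF8 RNA had normalized counts of 655, 606 and 634 in the sgScr libraries A, B and C, of 564, 571 and 565 in sgPHF8-1, and of 400, 387 and 434 in sgPHF8-3. It was lowest in the 3 sgPHF8-3 libraries, and no value of either guide group reached those of sgScr. The log2 fold change against sgScr was -0.16 ± 0.05 (SE; adjusted p = 0.0272, edgeR) with sgPHF8-1 and -0.63 ± 0.06 (adjusted p = 6.4e-09) with sgPHF8-3. With sgPHF8-1 the call was lost with DESeq2 (adjusted p = 0.126) and without sgScr A, sgScr C, sgPHF8-1 A or sgPHF8-1 C (adjusted p from 0.0572 to 0.118). These counts cover the whole gene and do not measure editing at the target or PHF8 protein. By Western blot, the paper reports efficient PHF8 knockout with both guides in several melanoma lines, SKMEL-147 among them.

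Libraries held 17366120 to 19838142 counted reads. Within sgPHF8-1, library B differed most from its partners, and within sgPHF8-3 it was library C. Of markers of dedifferentiated melanoma, AXL (27146 to 29594 normalized counts), NGFR, EGFR and SOX9 were present in every library, as were SOX10 and MITF, whereas the pigment genes MLANA and TYR were at 0 and PMEL, DCT and TYRP1 did not exceed 11.2. Of markers of other cell types, PTPRC, EPCAM, CDH1 and DCN did not exceed 3.25, but LUM, a matrix gene of fibroblasts, lay between 239 and 322.

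Ligands, receptors and inhibitors were each dominated by a few genes. Of the 49 members, 11 had no read in any of the 9 libraries: WNT1, WNT3A, WNT4, WNT8A, WNT8B, FZD9, FZD10, ROR2, DKK4, SFRP5 and WIF1. A count of 0 allows a level of up to 0.151 to 0.173 RPM (reads scaled to the total count of the library), depending on the library, by counting error only. A further 12 members, among them 8 ligands, SFRP2, SFRP4, TCF7 and NKD1, had at most 9 reads in any library. The filter on low counts kept 24 members for testing and removed 25, which included WNT2B and WNT9A.

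To compare genes with each other, levels were expressed per length, as reads scaled to exon length in kb and to the total count of the library (RPKM). In sgScr the highest level was that of DKK1, with 118 ± 3.1 RPKM (SD, n = 3), followed by SFRP1 with 98.5 ± 1.3. Both encode secreted inhibitors. The ligands were far below them, with 11.7 ± 0.18 RPKM for WNT5B and 11.6 ± 0.17 for WNT5A, and the ranges of these 2 ligands over the libraries overlapped. WNT5A and WNT5B made up 93.0% ± 0.065 of the summed RPKM of all 19 ligands. WNT3, a canonical ligand, was at 1.31 ± 0.10 RPKM and WNT10B at 0.202 ± 0.062.

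The Frizzleds fell into 2 tiers. FZD8 (17.2 ± 0.27 RPKM), FZD6 (14.9 ± 0.12) and FZD2 (10.3 ± 0.23) did not overlap each other. The other 5 with reads lay between 1.24 RPKM for FZD3 and 2.60 for FZD4, and within this tier neither FZD4 and FZD1 nor FZD5 and FZD7 could be ordered beyond the spread of the libraries. LRP6 stood at 10.4 ± 0.084 RPKM and LRP5 at 1.08 ± 0.095, and among the other receptors RYK was at 21.4 ± 0.057, with ROR1 at 0.502 ± 0.10. WLS reached 27.0 ± 0.094 RPKM and PORCN 2.31 ± 0.078. LEF1, a nuclear partner of beta-catenin and more abundant than TCF7, was at 5.65 ± 0.21 RPKM, while AXIN2, a feedback inhibitor that beta-catenin induces in many tissues, was at 0.336 ± 0.066.

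**Figure D1:**
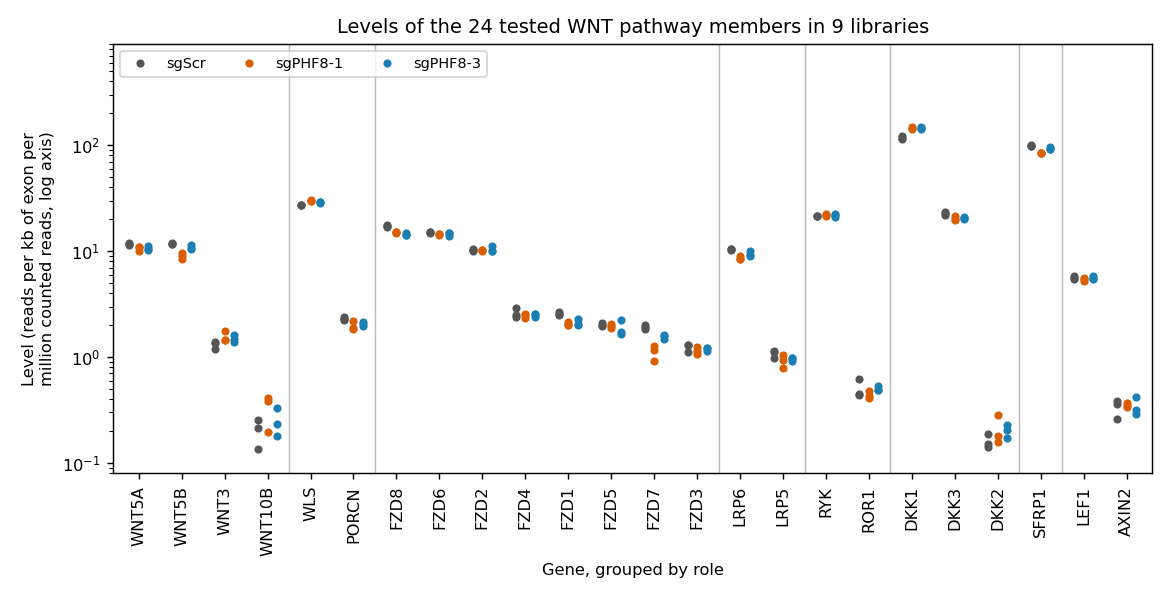
Level of each of the 24 tested members in each of the 9 libraries, in RPKM on a log axis, with genes grouped by role (vertical lines) and colours for the 3 groups. DKK1 and SFRP1 lay highest, WNT5A and WNT5B were the only ligands near 10, and within most genes the 3 groups differed little on this scale.

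Against sgScr, most called members were lower. With sgPHF8-1, 2 of the 24 tested members rose (DKK1 and WLS), 8 fell (WNT5A, WNT5B, FZD1, FZD7, FZD8, LRP6, DKK3 and SFRP1) and 14 were not called, at an adjusted p under 0.05 in edgeR's quasi-likelihood test with Benjamini-Hochberg adjustment over 14614 genes. Over all genes tested, 15.2% rose and 15.7% fell. With sgPHF8-3, 2 rose (DKK1 and WLS), 6 fell (WNT5A, FZD1, FZD7, FZD8, LRP6 and DKK3) and 16 were not called, beside 9.48% and 9.78% of all genes. The lower calls did not outnumber the higher ones under every rule. At an unadjusted p under 0.05 and an absolute log2 fold change over 0.25 in edgeR, 3 members rose and 3 fell with sgPHF8-1. With sgPHF8-3, 1 rose and 3 fell under that rule. The share of all genes that pass it was not computed. The median log2 fold change of the tested members was -0.07 with sgPHF8-1 and -0.05 with sgPHF8-3, where that of all genes was 0.00 in both. Both comparisons used the same sgScr libraries, so they are not independent of each other. Of the marker genes, NGFR moved with the groups, with log2 fold changes of -0.70 (adjusted p = 8.8e-15, edgeR) and -0.29 (adjusted p = 3.1e-07), as did SOX10 with -0.18 and -0.11. SOX9 was higher with sgPHF8-1 (0.25, adjusted p = 0.0129), and LUM was lower with sgPHF8-3 (-0.25, adjusted p = 0.0216). The part of these shifts in the results on the members was not tested.

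When both guide groups were averaged and set against sgScr, 2 members rose and 9 fell, and all genes gave 14.7% and 14.9%. The additional member that fell was PORCN. The changes were small. Over these 3 comparisons with sgScr, the called value furthest from 0 apart from FZD7 was the log2 fold change of -0.36 of WNT5B with sgPHF8-1. The call held under all 14 other ways of fitting for 9 of the 10 members called with sgPHF8-1, WNT5A being the exception, and for DKK1, DKK3, FZD8 and LRP6, 4 of the 8 called with sgPHF8-3.

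**Figure D2:**
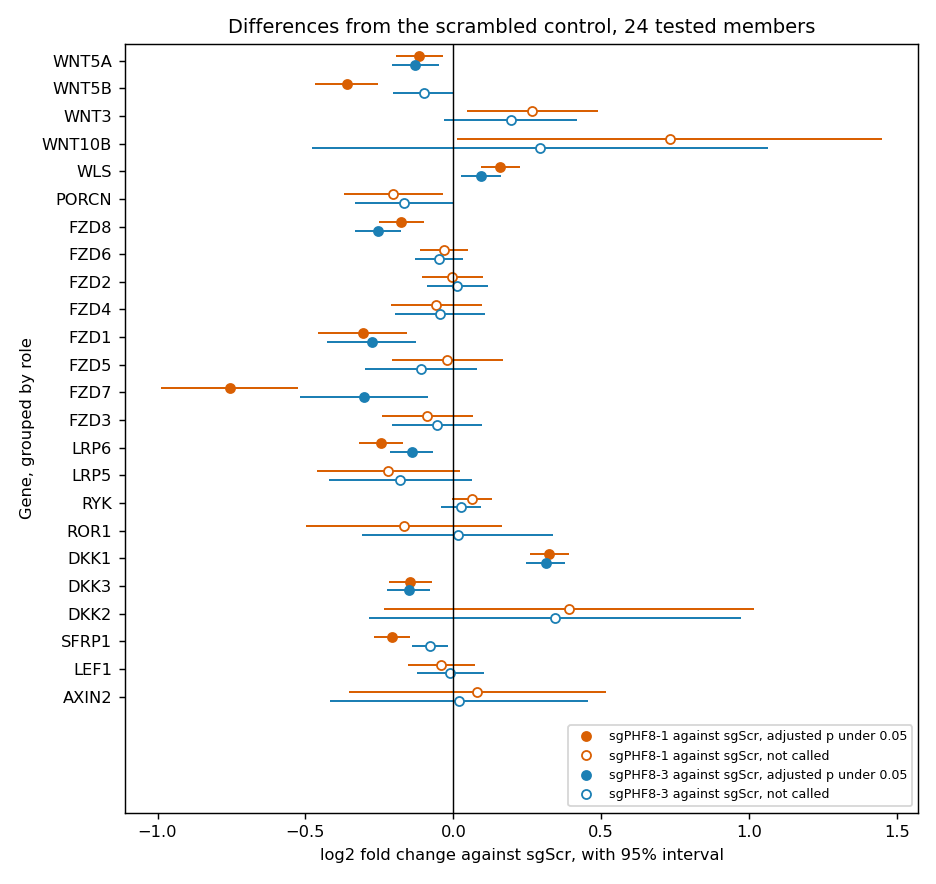
Log2 fold change against sgScr for the 24 tested members with its 95% interval, grouped by role, for sgPHF8-1 and sgPHF8-3. Filled points had an adjusted p under 0.05. With both guides, the intervals of DKK1 and WLS lay above 0. Those of FZD1, FZD7, FZD8, LRP6, DKK3, WNT5A and SFRP1 lay below 0 with both, although SFRP1 was not called with sgPHF8-3.

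Among the ligands, WNT5B fell with sgPHF8-1. Its normalized counts were 934, 915 and 909 in sgScr, 662, 778 and 712 in sgPHF8-1 and 904, 849 and 818 in sgPHF8-3. The sgPHF8-1 libraries lay below all others, and those of sgPHF8-3 lay just under sgScr without overlap. The log2 fold change was -0.36 ± 0.05 (adjusted p = 5.4e-06, edgeR) with sgPHF8-1 and -0.10 with sgPHF8-3 (adjusted p = 0.172, 95% interval -0.20 to 0.0032).

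WNT5A, the paralog, fell with both guides. It had 1557, 1538 and 1515 normalized counts in sgScr, 1341, 1477 and 1444 in sgPHF8-1, and 1369, 1392 and 1460 in sgPHF8-3. All 6 libraries with a PHF8 guide were below the 3 controls, and the guide groups overlapped each other. Against sgScr the log2 fold change was -0.12 (adjusted p = 0.025) with sgPHF8-1 and -0.13 (adjusted p = 0.0203) with sgPHF8-3 in edgeR. These calls were lost with DESeq2 (adjusted p = 0.0955 and 0.0765) and on leaving out sgScr A, sgScr B or sgPHF8-1 A in the first comparison (0.0695 to 0.209) and sgScr A, sgScr B, sgPHF8-3 A or sgPHF8-3 B in the second (0.0653 to 0.0957).

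The ratio of WNT5B to WNT5A in RPKM was 1.01 ± 0.0049 (SD, n = 3) in sgScr, 0.851 ± 0.032 in sgPHF8-1 and 1.03 ± 0.085 in sgPHF8-3. The summed RPKM of the ligands was 25.1 ± 0.39 in sgScr, 21.7 ± 0.79 in sgPHF8-1 and 23.6 ± 0.30 in sgPHF8-3, with no overlap between the groups. The share of WNT5A and WNT5B in that sum was 90.5% ± 1.5 in sgPHF8-1 and 91.2% ± 0.43 in sgPHF8-3.

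WNT3 had 135, 138 and 119 normalized counts in sgScr, 178, 148 and 144 in sgPHF8-1, and 164, 147 and 136 in sgPHF8-3. The sgPHF8-1 libraries were above the controls and those of sgPHF8-3 overlapped them. In edgeR the log2 fold changes were 0.27 (adjusted p = 0.0627) and 0.19 (adjusted p = 0.23), and the first passed the threshold without sgPHF8-1 B (adjusted p = 0.046) or sgPHF8-1 C (0.041). WNT10B, at 6.50 to 19.8 normalized counts, was not called with either guide, but passed with sgPHF8-1 when library B was left out (log2 fold change 0.98, adjusted p = 0.0361).

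WLS, which carries WNT proteins out of the cell, rose with sgPHF8-1. The normalized counts were 2214, 2237 and 2225 in sgScr, 2444, 2563 and 2450 in sgPHF8-1, and 2424, 2341 and 2356 in sgPHF8-3. The 3 groups did not overlap, with sgPHF8-1 highest and sgScr lowest. In the fit the log2 fold change was 0.16 ± 0.03 (adjusted p = 0.000377, edgeR) and 0.09 ± 0.03 (adjusted p = 0.0416) in turn. The call with sgPHF8-3 was lost in 10 of 14 other fits, among them DESeq2 (adjusted p = 0.112), no filter on low counts (0.182) and the removal of sgPHF8-1 A or of any one sgScr or sgPHF8-3 library (0.0502 to 0.172).

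PORCN, the acyltransferase, had 256, 242 and 244 normalized counts in sgScr, 204, 204 and 237 in sgPHF8-1 and 220, 231 and 210 in sgPHF8-3. Every library with a PHF8 guide was below every control. This gave a log2 fold change of -0.20 (adjusted p = 0.0602) with sgPHF8-1 and -0.17 (adjusted p = 0.16) with sgPHF8-3 in edgeR, and without sgPHF8-1 C the first passed (-0.28, adjusted p = 0.0183). The average of both guides gave -0.18 (adjusted p = 0.0471), a call that was lost in 10 of the 13 other fits, with adjusted p values from 0.06 to 0.18 that included the removal of any sgScr library, of sgPHF8-1 A or B, or of sgPHF8-3 A or C.

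Of the 8 tested Frizzleds, FZD1, FZD7 and FZD8 fell with both guides, and FZD2, FZD3, FZD4, FZD5 and FZD6 were not called. FZD7 had the largest fold change among the members called with sgPHF8-1. Its normalized counts were 156, 163 and 170 in sgScr, 99.8, 111 and 78.5 in sgPHF8-1, and 135, 137 and 124 in sgPHF8-3. The 3 groups were separate, with sgPHF8-1 lowest. The log2 fold change was -0.76 ± 0.11 (adjusted p = 9.8e-06, edgeR) with sgPHF8-1 and -0.30 ± 0.11 (adjusted p = 0.045) with sgPHF8-3. The second call was lost with DESeq2 (adjusted p = 0.177) and without any one of the sgScr or sgPHF8-3 libraries (0.0626 to 0.144).

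FZD8 is the Frizzled with the highest level in these cells. It had 1284, 1309 and 1267 normalized counts in sgScr, 1115, 1158 and 1146 in sgPHF8-1, and 1078, 1104 and 1055 in sgPHF8-3. The controls were highest and sgPHF8-3 lowest, without overlap. Its log2 fold change was -0.18 ± 0.04 (adjusted p = 0.000728, edgeR) with sgPHF8-1 and -0.25 ± 0.04 (adjusted p = 2.2e-05) with sgPHF8-3, and the difference between the guides did not pass (-0.08, adjusted p = 0.219).

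FZD1 had 316, 336 and 326 normalized counts in sgScr, 255, 265 and 271 in sgPHF8-1, and 294, 255 and 257 in sgPHF8-3. The controls lay above both guide groups, which overlapped. The log2 fold change was -0.31 ± 0.07 (adjusted p = 0.00197, edgeR) with sgPHF8-1 and -0.28 ± 0.07 (adjusted p = 0.00776) with sgPHF8-3, and the second was lost without sgPHF8-3 B (-0.24, adjusted p = 0.0526).

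Among the 5 other Frizzleds, FZD6 had 1112 to 1130 normalized counts in sgScr, 1072 to 1127 in sgPHF8-1 and 1050 to 1113 in sgPHF8-3, and its 95% interval was -0.11 to 0.05 with sgPHF8-1 and -0.13 to 0.03 with sgPHF8-3. FZD2 was within -0.11 and 0.10 with sgPHF8-1 and -0.09 and 0.12 with sgPHF8-3. FZD5 passed the test against sgScr only when sgPHF8-3 A was left out (-0.27, adjusted p = 0.0358, edgeR). FZD4 shares 18.9% of its exon length with PRSS23 on the opposite strand, a gene with 36924 reads against 3129 for FZD4. PRSS23 was higher with sgPHF8-3 (log2 fold change 0.13, adjusted p = 0.00787, edgeR) and not called with sgPHF8-1 (-0.07, adjusted p = 0.124), and whether the counting used the strand is not given in the sources used here. The summed RPKM of the Frizzleds was 52.8 ± 0.39 in sgScr, 48.4 ± 0.026 in sgPHF8-1 and 48.4 ± 0.56 in sgPHF8-3 (SD, n = 3).

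LRP6, the co-receptor of canonical signalling, fell with both guides. Its normalized counts were 1970, 1992 and 2005 in sgScr, 1637, 1663 and 1741 in sgPHF8-1, and 1749, 1777 and 1887 in sgPHF8-3. The groups were separate, with sgPHF8-1 lowest. Against sgScr the log2 fold change was -0.24 ± 0.04 (adjusted p = 9.4e-06, edgeR) and -0.14 ± 0.04 (adjusted p = 0.00638). The difference between the guides was 0.10 (adjusted p = 0.0779), and it passed without sgPHF8-1 C (0.0407) or sgPHF8-3 A (0.0478).

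LRP5, its paralog, had 131, 128 and 111 normalized counts in sgScr, 107, 122 and 89.9 in sgPHF8-1, and 112, 105 and 111 in sgPHF8-3. The groups overlapped. At these lower counts the 95% interval of the log2 fold change ran from -0.46 to 0.02 with sgPHF8-1 (adjusted p = 0.17, edgeR) and from -0.42 to 0.06 with sgPHF8-3 (adjusted p = 0.31), so a fall of the size seen for LRP6 lay within it. Among the receptors that take WNT5A, RYK had 3220 to 3229 normalized counts in sgScr, 3267 to 3513 in sgPHF8-1 and 3169 to 3369 in sgPHF8-3, and its log2 fold change was 0.06 (adjusted p = 0.15) and 0.02 (adjusted p = 0.659). ROR1, a receptor tyrosine kinase, had 53.0 to 76.8 normalized counts over all libraries and was not called.

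**Figure D3:**
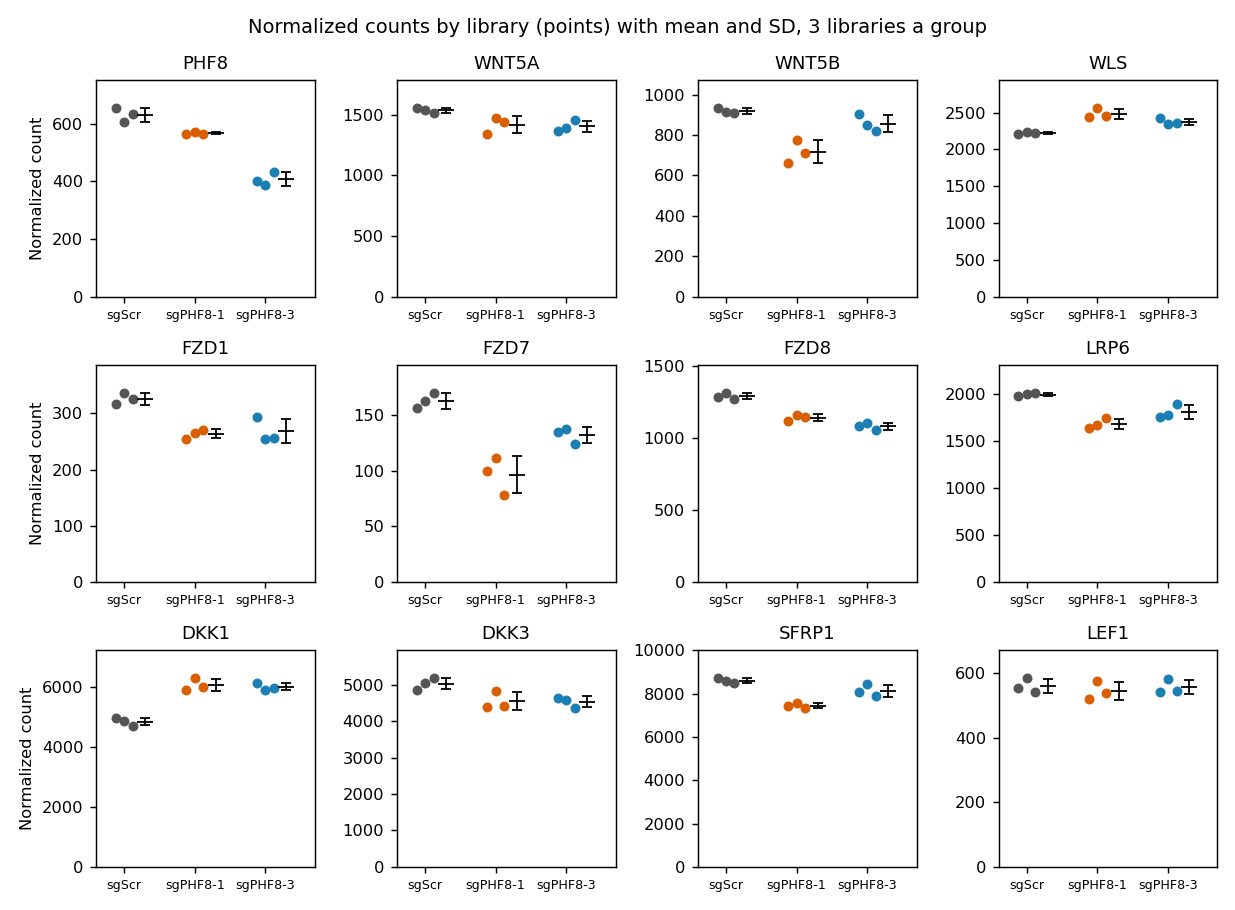
Normalized counts in each library (points) with the mean and SD of 3 libraries (bar at the right of each group), each vertical axis starting at 0, for PHF8, the 10 members called with at least 1 guide, and LEF1. DKK1 and WLS lay above sgScr in all libraries with a PHF8 guide, the other 8 called members lay below it, and LEF1 overlapped. The 10 members were picked because they were called, so their separation adds nothing to the calls. The share of all genes with such separation was not computed.

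DKK1, which keeps LRP5 and LRP6 from the ligand, rose with both guides. Its normalized counts were 4946, 4842 and 4702 in sgScr, 5889, 6274 and 5991 in sgPHF8-1, and 6132, 5888 and 5966 in sgPHF8-3. All libraries with a PHF8 guide lay above all controls, and the guide groups overlapped. Against sgScr the log2 fold change was 0.32 ± 0.03 (adjusted p = 9.5e-09, edgeR) with sgPHF8-1 and 0.31 ± 0.03 (adjusted p = 4.8e-08) with sgPHF8-3, that is 25.2% and 24.1% more. The difference between the guides was -0.01, with a 95% interval from -0.08 to 0.05.

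DKK3, a divergent relative of DKK1, fell with both guides. It had 4874, 5058 and 5186 normalized counts in sgScr, 4409, 4832 and 4436 in sgPHF8-1, and 4652, 4596 and 4366 in sgPHF8-3. The controls lay above all libraries with a PHF8 guide, by a narrow margin for sgPHF8-1 B. This gave a log2 fold change of -0.15 ± 0.04 with each guide (adjusted p = 0.00257 and 0.00331, edgeR). Of the annotated exon length of DKK3, 47.5% overlaps USP47 on the opposite strand, and USP47, with 21867 reads against 42692, had log2 fold changes of 0.01 (adjusted p = 0.858) and 0.05 (adjusted p = 0.245). The ratio of DKK1 to DKK3 in RPKM was 5.17 ± 0.29 (SD, n = 3) in sgScr, 7.15 ± 0.14 in sgPHF8-1 and 7.12 ± 0.23 in sgPHF8-3. The size of this ratio rests on annotated exon lengths of 2221 bp for DKK1 and 11958 bp for DKK3. Without scaling to length, the mean normalized counts in sgScr were 4830 for DKK1 and 5039 for DKK3. DKK2, at 11.4 to 22.7 normalized counts, was not called.

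SFRP1, which sequesters WNT ligands, fell with sgPHF8-1. It had 8712, 8607 and 8510 normalized counts in sgScr, 7453, 7554 and 7350 in sgPHF8-1, and 8062, 8457 and 7915 in sgPHF8-3. The 3 groups did not overlap, and sgPHF8-1 was lowest. The log2 fold change was -0.21 ± 0.03 (adjusted p = 5.1e-06, edgeR) with sgPHF8-1 and -0.08 ± 0.03 (adjusted p = 0.0582) with sgPHF8-3. The latter passed in the fit of those 2 groups alone (adjusted p = 0.0321), without sgPHF8-1 B (0.0236) and without sgPHF8-3 B (-0.11, 0.0337).

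The promoters of DKK1, the member with the smallest adjusted p, and of FZD1, a member lower with both guides, are shown as the 250 bases before the start in RefSeq on GRCh38.p14. They were searched on both strands for CTTTGAT or CTTTGAA, the core bound by TCF and LEF factors, for the AP-1 motif TGACTCA and for the GC box GGGCGG, and capitals mark the matches.
DKK1, chr10:52314031-52314280, plus strand: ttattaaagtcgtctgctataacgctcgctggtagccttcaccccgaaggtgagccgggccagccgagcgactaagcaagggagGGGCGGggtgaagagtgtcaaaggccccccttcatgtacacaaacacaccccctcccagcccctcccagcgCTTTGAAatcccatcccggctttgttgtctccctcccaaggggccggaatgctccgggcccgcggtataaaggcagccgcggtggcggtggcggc
FZD1, chr7:91264183-91264432, plus strand: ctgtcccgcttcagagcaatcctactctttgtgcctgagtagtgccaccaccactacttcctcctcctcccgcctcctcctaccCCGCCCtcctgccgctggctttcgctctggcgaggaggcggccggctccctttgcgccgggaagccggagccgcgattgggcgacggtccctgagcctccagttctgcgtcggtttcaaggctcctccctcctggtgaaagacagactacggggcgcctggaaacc
DKK1 held 1 match to the TCF and LEF core and 1 GC box, and FZD1 held 1 GC box. Of 35116 promoters of this length in the table, 5.94% held the TCF and LEF core, 4.20% the AP-1 motif and 42.6% the GC box. Of the 14 tested members in the table, DKK1 alone held the TCF and LEF core in a listed promoter. A match of letters is a description of the window and not a bound site.

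LEF1 and AXIN2 were not called with either guide. LEF1 had 553, 583 and 541 normalized counts in sgScr, 521, 574 and 537 in sgPHF8-1, and 541, 580 and 544 in sgPHF8-3, so the groups overlapped. The 95% interval of its log2 fold change was -0.15 to 0.07 with sgPHF8-1 and -0.12 to 0.10 with sgPHF8-3. AXIN2, with 25.1, 34.6 and 37.03 normalized counts in sgScr, 33.6, 33.5 and 35.1 in sgPHF8-1, and 30.4, 27.7 and 40.2 in sgPHF8-3, had wide intervals, from -0.35 to 0.51 and from -0.42 to 0.46. NKD1, a feedback inhibitor of Dishevelled, had 2.05 to 7.49 normalized counts over all libraries, and TCF7, a nuclear partner of beta-catenin, at most 1.87. The filter on low counts removed both, so neither was tested in the main fit.

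The guides were also set against each other, in the same fit of all 9 libraries. In sgPHF8-3 against sgPHF8-1, FZD7, SFRP1 and WNT5B were higher, 3 of the 24 tested members, and 5.83% of all genes were. At the same edgeR threshold 0 members were lower, beside 4.74% of all genes, and that count was also 0 at an unadjusted p under 0.05 and with DESeq2. The difference was 0.45 ± 0.12 for FZD7 (adjusted p = 0.014, edgeR), 0.13 ± 0.03 for SFRP1 (0.00595) and 0.26 ± 0.05 for WNT5B (0.00179) on the log2 scale, and in each of them every sgPHF8-3 library lay between the sgPHF8-1 and the sgScr libraries. PHF8 RNA itself fell by 0.48 on the log2 scale from sgPHF8-1 to sgPHF8-3 (adjusted p = 3.9e-06), and NGFR was 0.41 higher (adjusted p = 6.7e-09). Among the other cell-state and cell-type markers, EGFR was 0.18 higher (adjusted p = 0.00401, edgeR), AXL 0.081 higher (0.049) and MITF 0.28 higher (0.0306), and LUM was lower (-0.29, adjusted p = 0.0125). The part of these differences in the results was not tested. The call of FZD7 was lost with DESeq2 (adjusted p = 0.053), without sgPHF8-1 C (0.33, adjusted p = 0.0931) and without sgPHF8-3 B (0.0624), and that of SFRP1 without sgPHF8-3 B (0.0765), which left 1 member called.

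The other genes of the pathway were described from 5 lists of 67 genes in all, of which 54 were tested. The lists were chosen with earlier results of these data known. With sgPHF8-1, 6 rose and 21 fell, and with sgPHF8-3, 2 rose and 17 fell, with median log2 fold changes of -0.08 in both. Over all genes tested, 15.2% rose and 15.7% fell with sgPHF8-1, and 9.48% rose and 9.78% fell with sgPHF8-3. In the list of planar polarity and non-canonical genes, 2 rose and 8 fell of 17 with sgPHF8-1, and 1 rose and 5 fell with sgPHF8-3. CELSR2, a cadherin of planar polarity, had 384, 351 and 369 normalized counts in sgScr, 183, 170 and 161 in sgPHF8-1, and 179, 201 and 239 in sgPHF8-3. Both guide groups were far below sgScr and overlapped each other, and the log2 fold change was -1.10 ± 0.09 (adjusted p = 2.5e-10, edgeR) and -0.84 ± 0.08 (adjusted p = 4.8e-08). PRICKLE1, a cytoplasmic polarity protein, fell by 0.71 and 0.43 on the log2 scale (adjusted p = 2.4e-09 and 1.0e-05), and DAAM1, a formin that acts downstream of Dishevelled, fell by 0.45 and 0.32 (adjusted p = 0.000168 and 0.00701). PRICKLE2 fell by 0.22 and 0.30 (adjusted p = 0.0189 and 0.00387). MAPK8, a JNK kinase and the gene of this list that rose with both guides, changed by 0.23 and 0.21 (adjusted p = 1.8e-05 and 8.4e-05), and was named after its values were seen. The call of DAAM1 with sgPHF8-3 was lost without sgScr A (adjusted p = 0.0761), and that of PRICKLE2 with sgPHF8-1 with DESeq2 (0.0929) and without sgScr A (0.0655) or sgPHF8-1 A (0.159).

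Of 11 tested genes of the list of beta-catenin and its nuclear cofactors, 5 fell with sgPHF8-1 and 6 with sgPHF8-3. Over all genes, 15.7% and 9.78% fell. CTNNB1, which encodes beta-catenin, had 17381, 17342 and 17616 normalized counts in sgScr, 15675, 16438 and 15747 in sgPHF8-1, and 16700, 16122 and 15865 in sgPHF8-3. All guide libraries were below the controls, and the log2 fold change was -0.13 ± 0.03 (adjusted p = 0.000957, edgeR) and -0.10 ± 0.03 (adjusted p = 0.0103), the latter lost without sgScr C (0.0588) or sgPHF8-3 B (0.0583). CTNNBIP1, which blocks the binding of beta-catenin to TCF factors, fell by 0.45 and 0.40. Of the coactivators, PYGO2 fell by 0.23 and 0.15, BCL9L by 0.30 and 0.21, and BCL9 by 0.22 with each guide, while PYGO1 was not called (-0.03 and 0.02). BCL9 lost its calls with DESeq2 (adjusted p = 0.11 and 0.134) and on leaving out sgScr B, sgScr C, sgPHF8-1 A, sgPHF8-3 B or sgPHF8-3 C (0.051 to 0.112). BCL9L with sgPHF8-3 was lost in 7 of 14 other fits, which included the removal of sgScr A, sgScr B, sgPHF8-1 A, sgPHF8-3 A or sgPHF8-3 B (0.0505 to 0.249), and PYGO2 with sgPHF8-3 without sgScr A (0.0528).

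**Figure D4:**
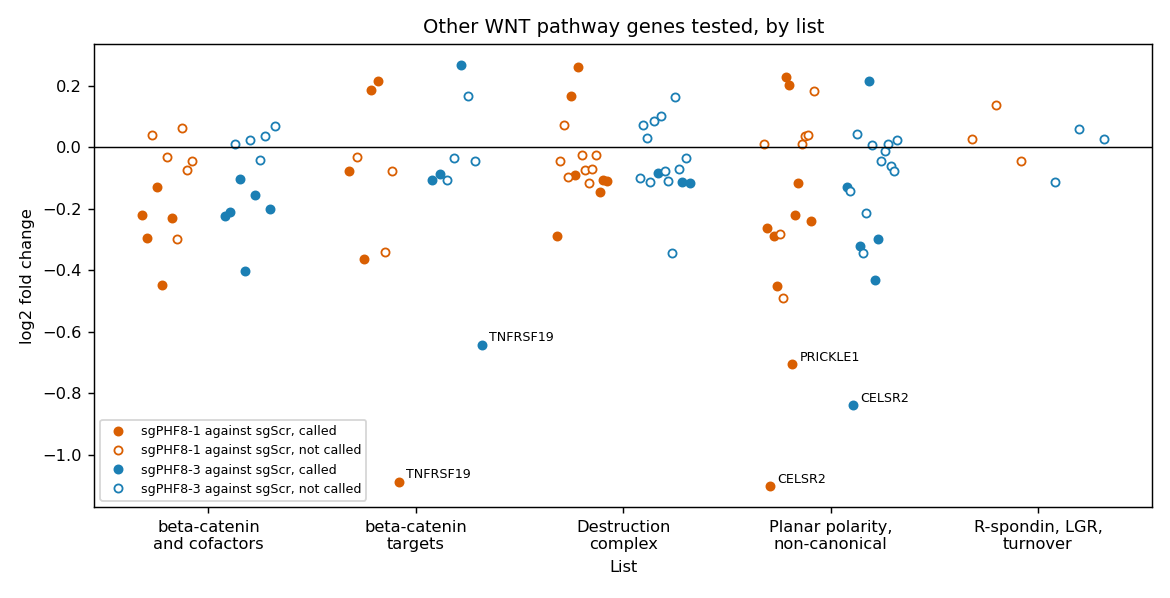
Log2 fold change against sgScr of the 54 tested genes of 5 other WNT pathway lists, for both guides, with filled points for an adjusted p under 0.05 (called). CELSR2, TNFRSF19 and PRICKLE1 had the lowest values, and most genes lay within 0.4 of 0.

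Among 8 tested genes of the list of common beta-catenin targets, 2 rose and 3 fell with sgPHF8-1, and 1 rose and 3 fell with sgPHF8-3. Over all genes, 15.2% rose and 15.7% fell with sgPHF8-1, and 9.48% rose and 9.78% fell with sgPHF8-3. MYC, the transcription factor, had 845, 859 and 850 normalized counts in sgScr, 1033, 926 and 998 in sgPHF8-1, and 991, 1081 and 1000 in sgPHF8-3. All guide libraries were above the controls, and the log2 fold change was 0.21 ± 0.05 (adjusted p = 0.00106, edgeR) and 0.27 ± 0.05 (adjusted p = 0.000192). TNFRSF19, a receptor of the TNF family, had 79.9, 87.1 and 75.0 normalized counts in sgScr, 31.6, 47.6 and 35.1 in sgPHF8-1, and 51.9, 49.2 and 53.9 in sgPHF8-3, with log2 fold changes of -1.09 ± 0.16 (adjusted p = 1.1e-05) and -0.64 ± 0.15 (adjusted p = 0.00362). CCND1, which encodes cyclin D1, fell by 0.08 and 0.11. The first of these calls was lost in 7 of 14 other fits, among them the removal of any sgScr library, of sgPHF8-1 A or C, or of sgPHF8-3 B (adjusted p from 0.0526 to 0.174), and the second without sgScr B (0.0619).

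In the list of the destruction complex and its regulators, 2 rose and 5 fell of 15 with sgPHF8-1, and 3 fell with sgPHF8-3. Shares over all genes were 15.2% higher and 15.7% lower with sgPHF8-1, and 9.78% lower with sgPHF8-3. GSK3B, the kinase that marks beta-catenin for destruction, fell by 0.15 and 0.11 on the log2 scale, TNKS2, a tankyrase that acts on axin, by 0.11 and 0.12, and CSNK1E, a casein kinase, by 0.09 and 0.09. The call of GSK3B with sgPHF8-1 (adjusted p = 0.00184, edgeR) held in all 14 other fits. GSK3B with sgPHF8-3 was lost with DESeq2 (adjusted p = 0.055) and without sgScr A, sgScr B, sgPHF8-3 A or sgPHF8-3 B (0.078 to 0.122). TNKS2 was lost with both guides with DESeq2 and without sgScr B or C, and also without sgPHF8-1 A, or without sgPHF8-3 A or B (adjusted p from 0.0548 to 0.143 over all of these). CSNK1E lost its call with sgPHF8-1 without any one of the sgScr libraries, sgPHF8-1 A or sgPHF8-1 B (0.0505 to 0.109), and with sgPHF8-3 in 11 of 14 other fits, which included the removal of sgPHF8-1 A or of any sgScr or sgPHF8-3 library (adjusted p from 0.0501 to 0.174). Of the 12 genes listed for R-spondins, LGR receptors and receptor turnover, LGR4, KREMEN1 and ZNRF3 were tested, and their log2 fold changes lay between -0.11 and 0.14.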

How the data were processed

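The authors sequenced RNA depleted of ribosomal RNA from 9 libraries, aligned it to hg19 with STAR and counted reads per gene with HTSeq. They deposited raw counts and counts divided by DESeq2 size factors, a normalized signal. The version of the annotation and the strand setting of the counting are not given in the sources used here. The labels and methods give 3 biological replicates per group.

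Raw counts were tested with edgeR 4.0.16 in R 4.3.3 (TMM, filterByExpr, quasi-likelihood test over all 9 libraries, Benjamini-Hochberg over 14614 genes, adjusted p under 0.05). Standard errors came from the log2 fold change and its F statistic. RPKM were computed from the counts and the exon lengths of GENCODE v44 lifted to GRCh37. Alternatives were DESeq2 1.42.0, RLE scaling, no filter, pairwise fits, the replicate block, each library left out and a looser rule. Scripts were tested on simulated counts. Named were all members called with a guide, the most abundant member of each role, 6 fixed members, and up to 4 genes per list called with both guides, with CTNNB1 and MYC. Members and lists were chosen with earlier results of these data known. Of 84 genes in the lists and marker sets, 83 were matched; the other was not analysed here.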

Additional observations from a re-analysis of the deposited data

Results flagged for a closer look

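The effects of the 2 PHF8 guides differed for 3 members in edgeR's test of sgPHF8-3 against sgPHF8-1. FZD7 was 0.45 higher on the log2 scale with sgPHF8-3 (adjusted p = 0.014), WNT5B 0.26 higher (adjusted p = 0.00179) and SFRP1 0.13 higher (adjusted p = 0.00595). In all 3 genes the 3 sgPHF8-3 libraries lay above the 3 sgPHF8-1 libraries. PHF8 RNA was 0.48 lower on the log2 scale in sgPHF8-3 than in sgPHF8-1, and it does not measure the loss of PHF8 protein. The call of WNT5B was kept under all 14 alternatives. That of FZD7 was lost with DESeq2 (adjusted p = 0.053), without sgPHF8-1 C (edgeR, 0.0931) and without sgPHF8-3 B (0.0624), and that of SFRP1 without sgPHF8-3 B (0.0765). The cause was not tested.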

How the results depend on the processing

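No call reversed its direction under any alternative. With sgPHF8-1 the number of members that rose ranged from 2 to 4 when 1 library was left out (4 without sgPHF8-1 B, which added WNT3 and WNT10B) and the number that fell from 7 to 9. With sgPHF8-3 these ranges were 1 to 2 and 4 to 7. Between the guides 1 to 4 members were higher, with 1 without sgPHF8-3 B, and for both guides together the ranges were 2 to 3 and 8 to 9. DESeq2, no filter and the replicate block each left 1 member higher with sgPHF8-3. A looser rule of the study's methods (unadjusted p under 0.05 and an absolute log2 fold change over 0.25) was applied to edgeR p values. Under it, 3 members fell and 3 rose with sgPHF8-1, and 3 fell and 1 rose with sgPHF8-3. With both together, 2 fell and 1 rose. The share of all genes that pass this rule was not computed. The study also set FDR limits for its gene lists. The PHF8 log2 fold change with sgPHF8-1 was -0.16 with DESeq2 (adjusted p = 0.126) and -0.19 to -0.13 when 1 library was left out. No pairing by replicate letter was seen after removal of group means. Same-letter libraries correlated at -0.125 to 0.0944 and different-letter libraries at -0.151 to 0.213. With so few libraries a group, this check cannot show that no pairing existed. With the letter as a block, WLS with sgPHF8-3 (adjusted p = 0.0549) and PORCN with both guides together (0.06) were no longer called, WNT3 with sgPHF8-1 was (0.0491), and no other member changed its call. The block gave 1314 genes higher and 1384 lower with sgPHF8-3, and 3 of the 9 libraries correlated best with a library of their own letter.

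DESeq2 called fewer genes, with 837 higher and 849 lower with sgPHF8-3 against 1385 and 1429 in edgeR, 507 and 395 against 852 and 692 between the guides, and 1420 and 1450 against 2149 and 2172 for both guides together. Leaving out 1 library gave 893 to 1733 higher and 984 to 1697 lower with sgPHF8-3, and 541 to 817 and 382 to 662 between the guides. The alternatives for the list genes were added after seeing the data. With 11 members at 0 and 12 at no more than 9 reads in any library, differences in the rarer ligands, TCF7 and NKD1 were not detectable at this depth.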
